A study of Mus musculus with 12 samples.

Results

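Interferon-stimulated genes are the genes that cells switch on when they sense an interferon. Described here are 34 of them, chosen by name and found through the gene symbols of the array's platform annotation. Of the 34, 33 had a probe set with that symbol, and the other was not analysed here. They stand among 24704 genes measured in whole mouse lung on 12 Affymetrix arrays, in 4 groups of 3. All mice carried Nfat5 alleles flanked by loxP sites. Controls (Nfat5fl/fl) received the solvent miglyol. In the knockouts, written Nfat5(EC)-/-, the gene was deleted in endothelial cells by 1 mg of tamoxifen given i.p. daily for 5 days. The knockouts therefore differ from the controls in the drug as well as in the deletion, and these cannot be told apart. The mice were adults of both sexes, 10 to 12 weeks old at the injections, and rested for 2 to 3 weeks. They then lived in normoxia, or in hypoxia lasting 21 days. Which driver expressed the recombinase is not stated in the labels. The design text counts 4 mice per group, and arrays are taken to be separate mice. It also says that lungs with contaminating tissue, or with an inadequate expression response to hypoxia, were left out by the authors. The hypoxia comparisons thus rest on animals chosen partly on their response.

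Type I and type III interferons signal through receptor-bound kinases to a complex that contains STAT2 and IRF9 and binds a DNA element called the ISRE. Interferon gamma acts largely through a different element called GAS. The induced genes encode sensors of viral RNA and DNA, proteins that stop viral translation or entry, and GTPases that attack the vacuoles of intracellular microbes. Many have a low level in unstimulated tissue that type I interferon signalling maintains.

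Values are log2 expression made with RMA, a method that brings all arrays to 1 distribution. A probe set's level depends on its probes, so levels are not compared between genes. Every comparison was fitted with limma over all 24704 genes, errors are limma's standard errors (SE) unless called SD, and a gene was called at a Benjamini-Hochberg adjusted p under 0.05. The table's median value was 4.55, and 6 of the 33 genes had a mean below it, namely Isg15, Mx1, Mx2, Oas1a, Oas3 and Oasl1. The other 27 lay at or above it. No detection calls were used, so whether those 6 were above background was not tested. In whole lung, fewer cells of a type and less RNA per cell cannot be told apart.

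The average over the 33 genes was nearly level across the 4 groups, at 6.38 ± 0.21 (SD, n = 3) in normoxic controls, 6.38 ± 0.04 in hypoxic controls, 6.41 ± 0.15 in normoxic knockouts and 6.44 ± 0.055 in hypoxic knockouts. Single arrays differed more than the groups did. Control normoxia 1 averaged 6.62 against 6.31 and 6.22 in the other normoxic controls. Knockout normoxia 1 averaged 6.58 against 6.35 and 6.29. The hypoxic arrays lay between 6.34 and 6.48. Control normoxia 1 was the highest of its group for 25 of the 33 genes and knockout normoxia 1 for 24 of 33. In the hypoxic groups no array was highest for more than 16.

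Other measures moved with that split. Among the 6 normoxic arrays, the same 2 had a low mean over 3 Y-linked genes, at 3.04 and 2.98, while the other 4 lay between 6.12 and 6.69. They also had the highest means over 8 markers of natural killer cells, at 5.42 and 5.32, against 4.47 to 5.02 elsewhere. The same held for 7 T-cell markers, at 5.54 and 5.87 against 5.15 to 5.51. It held for 5 nonclassical monocyte markers too, at 7.09 and 7.12 against 6.36 to 7.03. Means over B-cell, neutrophil and classical monocyte markers did not single out these 2 arrays. In hypoxia, the 4 arrays with a low Y-linked mean averaged 6.37 to 6.48 over the interferon-stimulated genes and the 2 with a high one 6.34 and 6.47, which overlap. Whether sex or any of these cell types contributed was not tested. Because 4 of 6 normoxic but 2 of 6 hypoxic arrays were Y-high, the Y-linked mean was also tried as a covariate. The 2 Y-high hypoxic arrays had Y-linked means of 5.34 and 5.36, below all 4 Y-high normoxic ones. That covariate thus also carries a difference between the oxygen states.

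**Figure D1:**
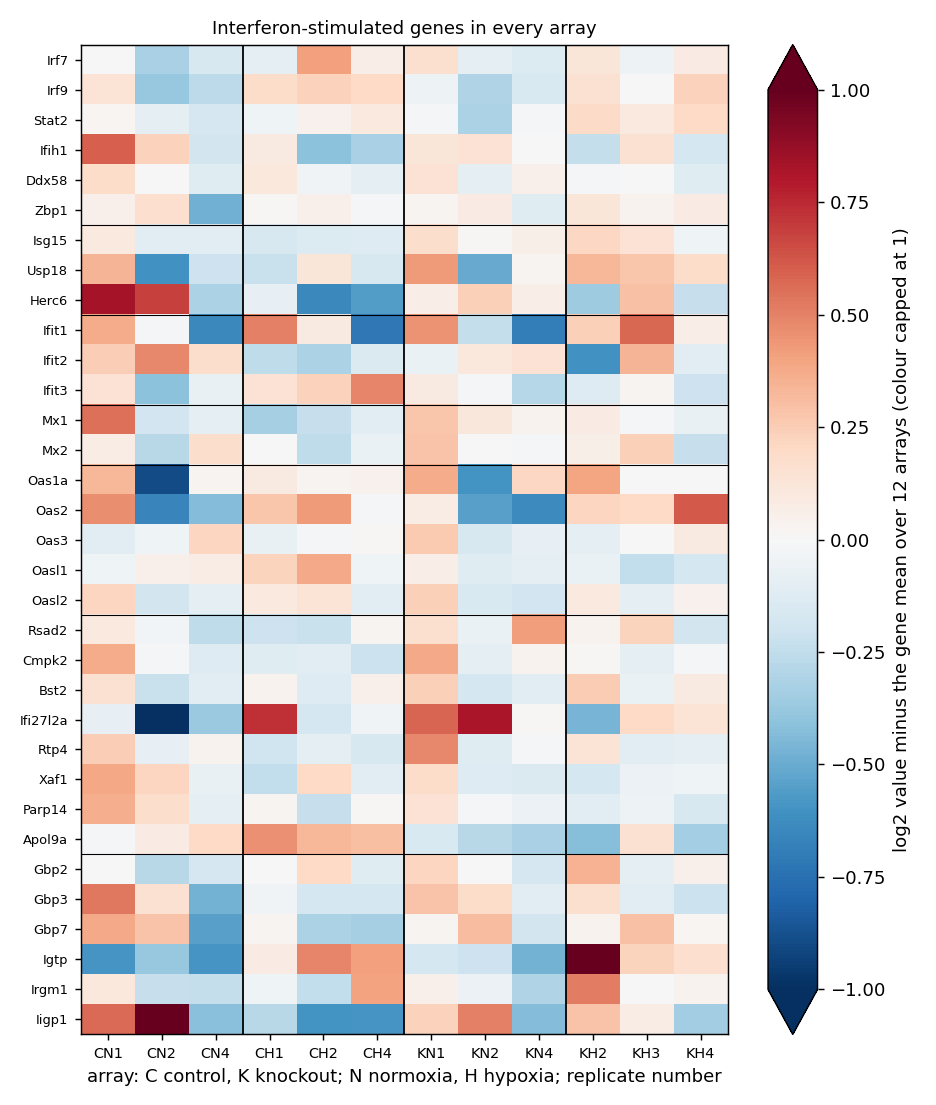
Log2 value of each of the 33 interferon-stimulated genes (rows, grouped by role) in each of 12 arrays (columns, with group and replicate number), as the difference from that gene's mean over the 12 arrays, with the colour capped at 1. Red is above and blue below the mean: CN1 and KN1 are red for most genes, while Igtp is blue in all 3 CN arrays and red in all hypoxic ones.

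**Figure D2:**
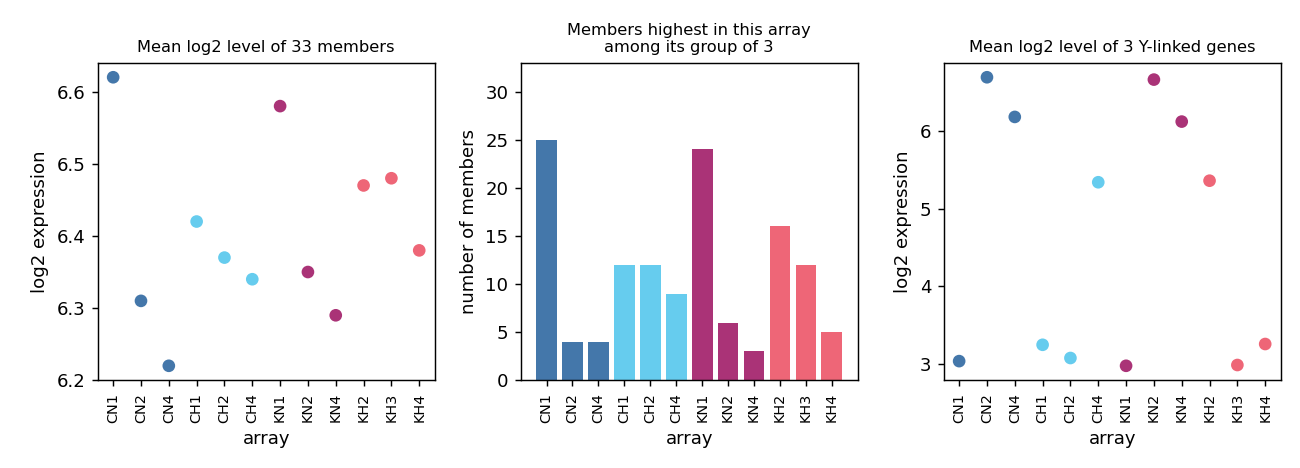
For each array, the mean log2 value of the 33 genes (left), the number of these genes for which the array is the highest of its group of 3 (middle), and the mean log2 value of 3 Y-linked genes (right). CN1 and KN1 stand highest on the left at 6.62 and 6.58, reach 25 and 24 genes in the middle, and are the low normoxic arrays on the right.

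The lungs were of the labelled kind, with means over 5 lung epithelial markers of 12.5 to 12.6 and over 8 endothelial markers of 10.1 to 10.4. Thymocyte markers averaged 3.34 to 3.50. Ucp1, the uncoupling protein of brown fat, reached 9.31 in knockout normoxia 2 and 7.66 in control hypoxia 1. The other 10 arrays read 3.34 to 4.28. Knockout normoxia 2 also had the highest mean over 5 markers of heart atrium, at 9.6, followed by knockout normoxia 4 at 8.25, against 6.16 to 7.73 on the others. The 2 arrays with high Ucp1 were also left out together as a check added after the data were seen.

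Nfat5 itself read 9.01, 9.39 and 8.92 in normoxic controls and 8.59, 8.80 and 8.62 in normoxic knockouts, which do not overlap. In hypoxia the controls read 8.61, 8.16 and 8.51 and the knockouts 8.17, 8.46 and 8.40, which overlap. The knockout difference was -0.44 ± 0.15 in normoxia (adjusted p = 0.62) and -0.08 in hypoxia (adjusted p = 0.97), and neither was called. Other lung cells keep the gene, and whether the probe set lies in the deleted part is not known, so the array is a weak check of the deletion. Nfat5 fell with hypoxia in controls by 0.68 (adjusted p = 0.016). Over 21 alternative settings of the fit that difference ran from -0.77 to -0.05, and the call was lost in 4 of them.

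The first question was which of the genes moved with 21 days of hypoxia. Igtp was the clearest, higher in hypoxia in both genotypes, and Irf9 followed at a smaller size. In controls 1 of the 33 genes was called, a rise, which is 3.03% of them. Among all genes 11.5% were called in that comparison, 27.4% had an unadjusted p under 0.05 and 27.7% had groups that did not overlap. For the interferon-stimulated genes the same counts were 8 of 33 at an unadjusted p under 0.05 and 6 of 33 (18.2%) without overlap. In knockouts 0 of 33 were called, 4 had an unadjusted p under 0.05 and 4 (12.1%) did not overlap. The shares of all genes were 1.14%, 12.6% and 19.8%. Averaged over the genotypes 2 of 33 were called (6.06%), both rises, against 14.7% of all genes. At an unadjusted p under 0.05 there were 7 of 33, against 28.4% of all genes. At these sizes the shares cannot be read closely, since 1.14% of 33 is less than 1 gene. With the replicate number as a block, 3 of 33 were called in controls (9.09%, against 8.33% of all genes) and 4 averaged (12.1%, against 10.8%). With the 2 groups' own arrays only, 2 were called in controls (6.06%, against 4.45%). The group's share thus lay on either side of that of all genes, depending on the fit.

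There was no common direction. The median log2 difference of the 33 genes with hypoxia was 0.05 in controls, -0.01 in knockouts and 0.02 averaged, against 0.01, 0.00 and 0.01 over all genes. In controls 17 lay above 0 and 16 below. The median size without regard to sign was 0.216 in controls, against 0.152 for all genes. The median SE was larger too, at 0.147 against 0.118, so these sizes are not directly comparable. The 95% interval of the hypoxia difference in controls lay within 2-fold either way for 28 of 33 genes, the exceptions being Herc6, Ifi27l2a, Igtp, Iigp1 and Oas2. Averaged over genotypes it did so for 32 of 33, all but Igtp.

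Igtp encodes IRGM3, a member of the immunity-related GTPases (IRG), which guard vacuole membranes against intracellular parasites and bacteria. It read 6.38, 6.59 and 6.38 in normoxic controls and 7.05, 7.46 and 7.38 in hypoxic controls. The knockouts read 6.79, 6.76 and 6.50 in normoxia and 8.01, 7.19 and 7.13 in hypoxia. Every hypoxic array lay above every normoxic one, and knockout hypoxia 2 was the highest. The rise was 0.85 ± 0.20 in controls (limma adjusted p = 0.023), or 1.8-fold. In knockouts the difference was 0.76 ± 0.20 (adjusted p = 0.11), which was not called. Averaged, it was 0.81 ± 0.14 (adjusted p = 0.0049), or 1.75-fold. An exact permutation of arrays within genotypes gave 0.005, the smallest value that test allows, and the exact permutation test within 1 genotype cannot go below 0.1. The difference between the genotypes' responses was -0.08 with a 95% interval from -0.71 to 0.54.

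The call in controls was lost when control hypoxia 2 (adjusted p = 0.095), control hypoxia 4 (0.062), control normoxia 1 (0.076) or control normoxia 2 (0.055) was left out. The averaged rise stayed called without any single array. It was 0.89 (adjusted p = 0.01) with the Y-linked mean as covariate. With the mean of 10 nuclear noncoding RNAs as covariate it was 0.54 (adjusted p = 0.55). That mean ran from 5.27 to 5.80 on the hypoxic arrays and from 5.68 to 6.33 on the normoxic ones.

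Igtp lies on chromosome 11 between Gm12250, which encodes the related GTPase IRGB10, and Irgm2, by the gene order of GRCm38. Irgm2 read 7.15, 7.32 and 7.16 in normoxic controls and 7.67, 7.80 and 7.94 in hypoxic ones. It rose by 0.59 ± 0.14 in controls (adjusted p = 0.02) and by 0.60 averaged over genotypes (adjusted p = 0.0029). Gm12250, looked at after its neighbour's values were seen, read 5.01, 4.92 and 4.99 in normoxic controls and 5.70, 5.77 and 5.78 in hypoxic ones. Its difference in controls was 0.78 ± 0.26 and was not called (adjusted p = 0.072). It rose by 0.82 ± 0.18 averaged (adjusted p = 0.013). So all 3 neighbours rose in the averaged comparison. In knockouts neither Irgm2 nor Gm12250 was called. Irgm2 differed there by 0.605 (adjusted p = 0.061) without overlap, and Gm12250 by 0.866 (adjusted p = 0.16) with overlap. The call of Irgm2 in controls was lost in 4 of 21 settings. With the nuclear RNA covariate the averaged calls of Irgm2 and Gm12250 were lost too (adjusted p = 0.38 and 0.84). Related GTPase genes elsewhere on chromosome 11 did not pass: Irgm1 differed by 0.22 averaged (adjusted p = 0.30) and Ifi47 by -0.23 (adjusted p = 0.25). These genes are alike in sequence, and how far their probes share signal was not tested.

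**Figure D3:**
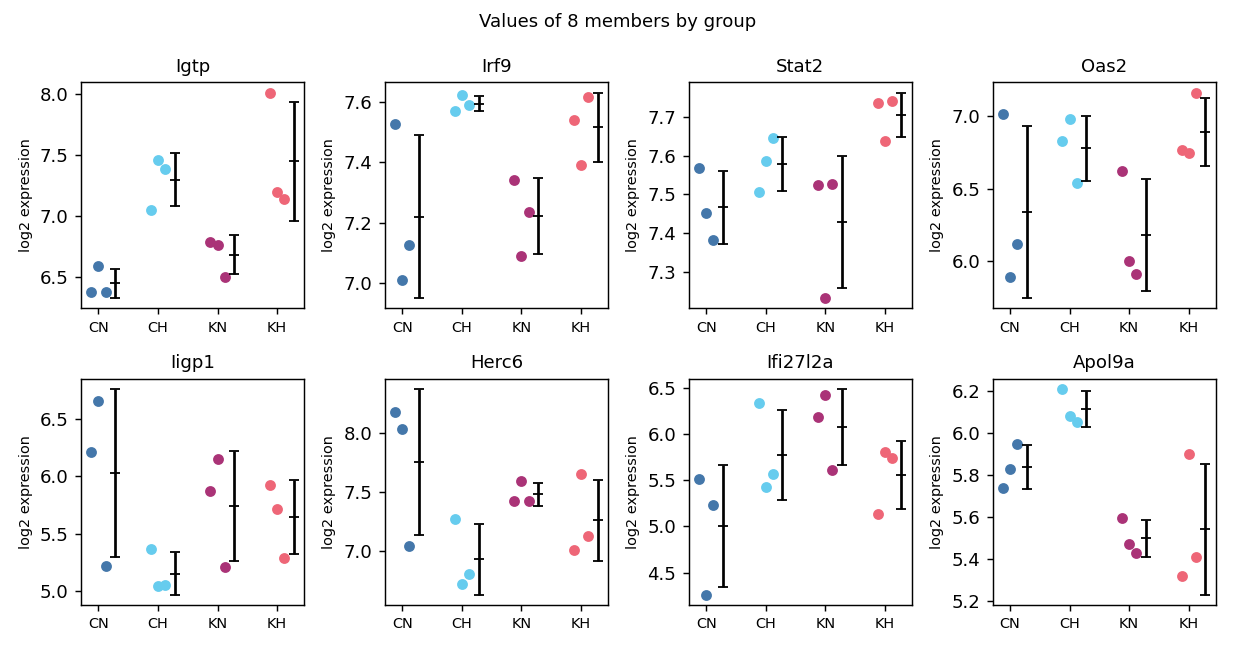
Log2 expression of 8 interferon-stimulated genes in each array (points) by group, with the mean and SD of 3 arrays (bars). CN and CH are normoxic and hypoxic controls, KN and KH normoxic and hypoxic knockouts, and each panel has its own axis range: the hypoxic Igtp and Irf9 arrays lie above the normoxic ones of the same genotype, while Herc6 and Iigp1 spread widely in CN.

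The proximal promoters of 24 of the 33 genes were found among the RefSeq sequences of GRCm38.p6, as windows from 250 bases before to 50 bases after the annotated start. An ISRE core was taken as GAAA, any 2 bases and GAAA again, on either strand (TTTC, any 2 bases and TTTC when read on the other). It was in 16 of the 24 (66.7%) against 3.99% of 27025 genes with windows of the same length. A gene was counted if the window of any of its annotated start sites held a match. A GAS core, TTCNNNGAA, which reads the same on both strands, was in 5 of 24 (20.8%) against 9.55%. In Bst2 the matches of the 2 motifs overlapped, and in Igtp they did not. Shown here are 110-base stretches for the called genes, Igtp and Irf9, and for Irgm1, an IRG gene that was not called. Capitals mark bases in a match. Igtp is at chr11:58199446-58199555 on the plus strand, Irf9 at chr14:55603875-55603984 on the plus strand and Irgm1 at chr11:48871421-48871530 on the minus strand.
Igtp: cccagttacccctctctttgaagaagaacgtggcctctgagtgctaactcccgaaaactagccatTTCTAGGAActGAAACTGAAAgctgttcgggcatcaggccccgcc
Irf9: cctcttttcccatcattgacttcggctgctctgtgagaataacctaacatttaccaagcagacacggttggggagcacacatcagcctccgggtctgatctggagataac
Irgm1: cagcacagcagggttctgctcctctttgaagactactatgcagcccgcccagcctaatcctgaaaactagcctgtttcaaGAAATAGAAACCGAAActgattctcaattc
Igtp held a GAS core from position -45 and an ISRE core from position -34, counted back from the start site. Irgm1 held overlapping ISRE cores from positions -30 and -24. Irf9, which was called, had no match in the window, and Irgm1, which had matches, was not called. These are letter matches and say nothing of binding.

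**Figure D4:**
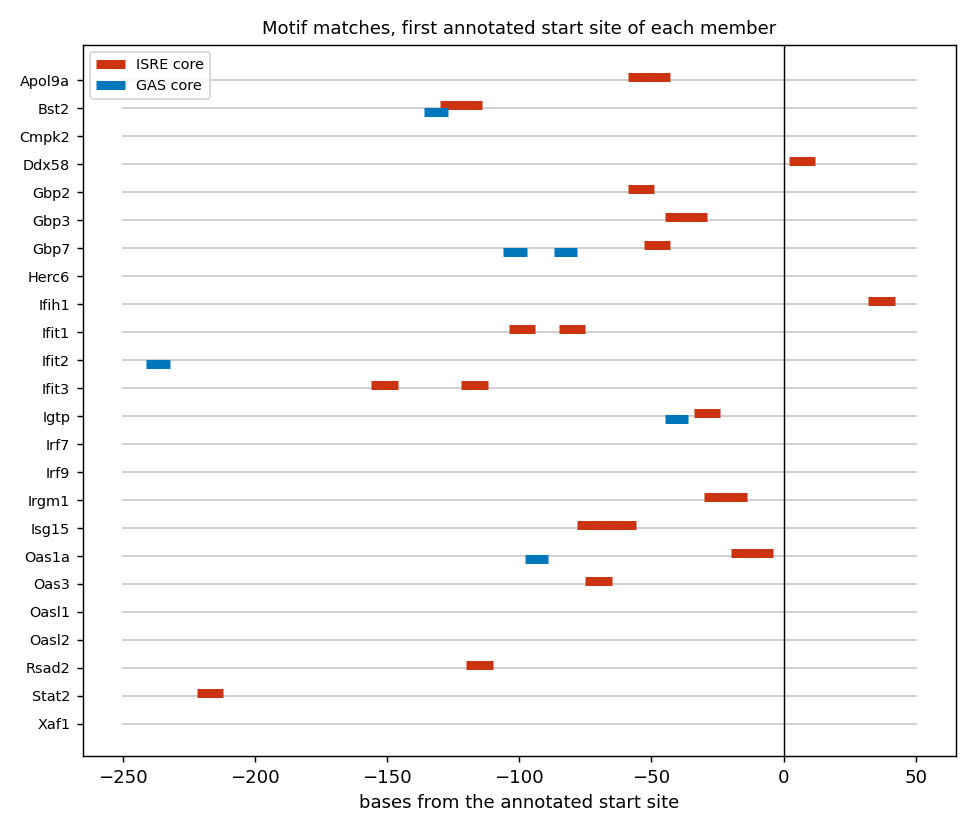
Position of ISRE core (red) and GAS core (blue) matches in the window from 250 bases before to 50 bases after the annotated start site (0) of the 24 genes with a RefSeq promoter. Of the 24, 16 carry an ISRE core and 5 a GAS core, and Igtp carries both close to the start.

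Among the regulators and sensors, Irf9 and Stat2 encode components of the ISRE-binding complex. Irf9 read 7.53, 7.01 and 7.13 in normoxic controls and 7.57, 7.62 and 7.59 in hypoxic controls. It read 7.34, 7.09 and 7.24 in normoxic knockouts and 7.54, 7.39 and 7.62 in hypoxic ones. The groups did not overlap within a genotype, but control normoxia 1 came close to the hypoxic arrays. Averaged over genotypes Irf9 rose by 0.33 ± 0.09 (adjusted p = 0.028), with 0.37 ± 0.13 in controls (adjusted p = 0.075) and 0.29 in knockouts (adjusted p = 0.36). The averaged call held in 10 of 20 alternative settings. It was lost with the Y-linked covariate (0.24, adjusted p = 0.10), with the nuclear RNA covariate (adjusted p = 0.77), without both arrays of high Ucp1, and without any 1 of 7 arrays.

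Stat2 read 7.57, 7.45 and 7.38 in normoxic controls and 7.51, 7.59 and 7.65 in hypoxic ones, which overlap. In knockouts it read 7.53, 7.23 and 7.53 in normoxia and 7.74, 7.64 and 7.74 in hypoxia, which do not overlap. The averaged difference was 0.20 (adjusted p = 0.078). Irf7, which amplifies interferon production, differed by 0.29 in controls and 0.07 in knockouts. Ifih1, the RNA sensor MDA5, went the other way, with group means of 8.07 and 7.64 in controls and a difference of -0.43 (adjusted p = 0.16). Ddx58, the RNA sensor RIG-I, and Zbp1, a sensor of Z-form nucleic acid, had averaged differences of -0.05 and 0.09. Of these 6 genes only Irf9 passed in any of the 7 comparisons.

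The ISG15 system attaches the ubiquitin-like protein ISG15 to other proteins. Herc6 is the main ISG15 ligase of the mouse. It read 8.19, 8.04 and 7.04 in normoxic controls and 7.27, 6.71 and 6.80 in hypoxic ones, and the groups overlap because of control normoxia 4. The difference in controls was -0.83 ± 0.27 (adjusted p = 0.07), and in knockouts, which read 7.43, 7.60 and 7.42 in normoxia against 7.00, 7.65 and 7.12 in hypoxia, it was -0.22 (adjusted p = 0.83). Isg15 read between 3.33 and 3.71 on all 12 arrays. Usp18, which removes ISG15 and dampens the receptor, read 7.02 to 8.05 and differed by 0.07 in controls with hypoxia. None of the 3 was called.

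The IFIT proteins bind foreign RNA and block its translation. Ifit2 read 5.66, 5.90 and 5.59 in normoxic controls and 5.16, 5.10 and 5.27 in hypoxic ones, without overlap, a difference of -0.54 ± 0.19 (adjusted p = 0.081). Ifit3 pointed the other way in controls, by 0.40 (adjusted p = 0.11), reading 5.33, 4.78 and 5.11 in normoxia and 5.32, 5.41 and 5.67 in hypoxia. The groups overlap by 1 array. Ifit1 varied widely within groups, reading 6.85, 6.16 and 5.71 in normoxic knockouts and 6.64, 6.97 and 6.47 in hypoxic ones, which overlap. Its hypoxia difference of 0.45 in knockouts (adjusted p = 0.68) was smaller than the SD of 0.57 in normoxic knockouts. These neighbouring genes thus had unlike directions in controls, and none of the 3 was called.

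Mx1 and Mx2, GTPases that trap viral nucleocapsids, read low, with group means of 3.31 to 3.67 and 3.38 to 3.58. Many inbred mouse strains carry defective copies of both genes. Among the family of 2-5A synthetases, whose product activates the RNA-degrading RNase L, Oas2 had the largest hypoxia differences. It read 7.01, 5.89 and 6.12 in normoxic controls against 6.82, 6.97 and 6.54 in hypoxic ones, and control normoxia 1 was the highest of these 6. In knockouts it read 6.62, 6.01 and 5.91 in normoxia and 6.76, 6.75 and 7.16 in hypoxia, without overlap. The averaged difference was 0.57 ± 0.19 (adjusted p = 0.066) with an exact permutation p of 0.04, and it was not called. The averaged differences of Oas1a, Oas3, Oasl1 and Oasl2 lay between -0.03 and 0.185. None of these 5 genes or of the 2 Mx genes passed.

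The other effectors and the remaining GTPases also gave no call with hypoxia. Iigp1, an IRG protein that loads onto parasite vacuoles, read 6.21, 6.65 and 5.22 in normoxic controls and 5.37, 5.05 and 5.05 in hypoxic ones. The difference of -0.88 ± 0.33 (adjusted p = 0.11) was not called, and control normoxia 4 lay within the hypoxic range. Without that array the difference was -1.28 and was called (adjusted p = 0.012), as was that of Herc6 (-1.18, adjusted p = 0.0059). Neither gene was called without any other single array. Without control normoxia 2 the Iigp1 difference was -0.563 (adjusted p = 0.34), and without control normoxia 1 that of Herc6 was -0.612 (adjusted p = 0.23). The knockouts read 5.87, 6.15 and 5.21 in normoxia and 5.93, 5.72 and 5.29 in hypoxia, which overlap. Iigp1 and Igtp, both of the IRG family, thus had opposite signs in controls. Gbp2, Gbp3 and Gbp7, guanylate-binding proteins of the same defence, differed by 0.17, -0.20 and -0.25 in controls. Rsad2 (viperin, which makes a chain-terminating nucleotide), its neighbour Cmpk2, Bst2 (tetherin, which holds virions at the cell surface), Rtp4, Xaf1 and Parp14 differed by -0.23 to 0.05 in controls. Ifi27l2a and Apol9a are described with the genotype.

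**Figure D5:**
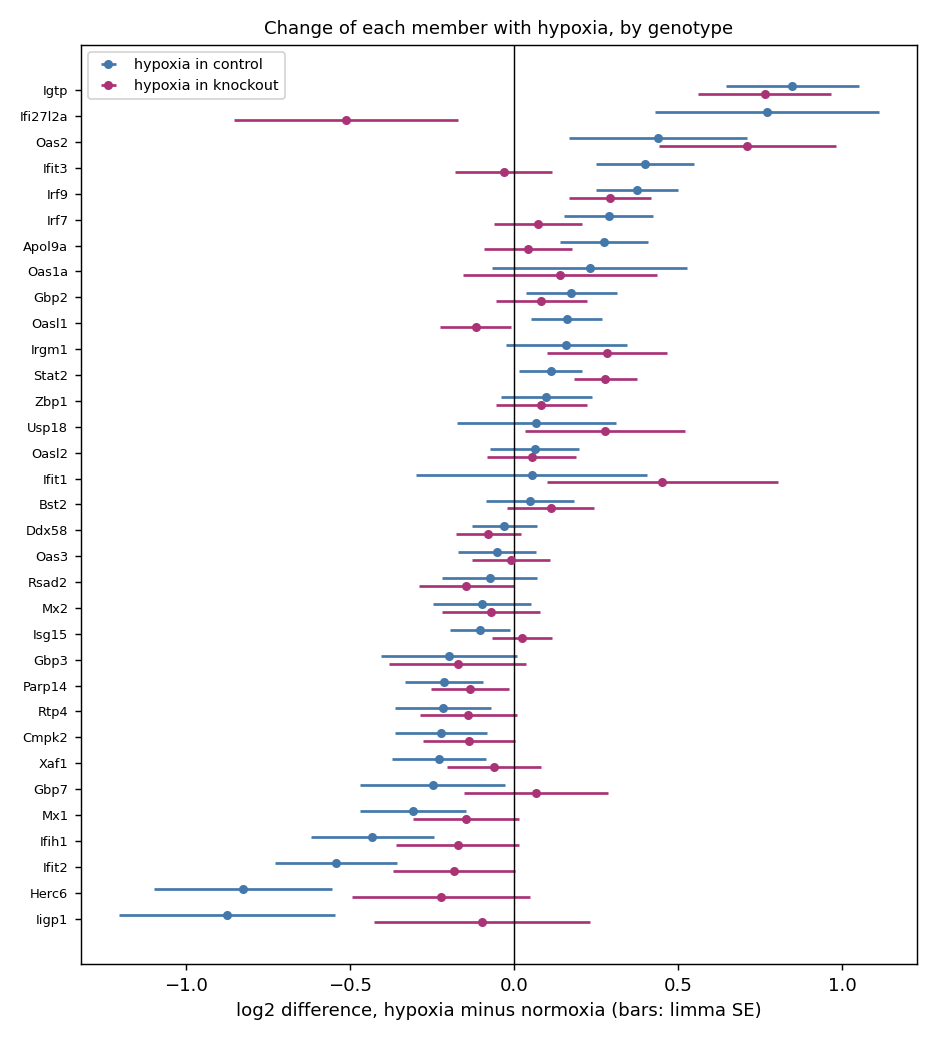
Log2 difference, hypoxia minus normoxia, of each of the 33 genes in controls (blue) and knockouts (purple), with limma's SE as bars, ordered by the control value. Igtp is highest in both genotypes (0.85 and 0.76), Iigp1 and Herc6 are lowest in controls (-0.88 and -0.83), and Ifi27l2a has opposite signs (0.77 and -0.51).

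Some cell markers moved with hypoxia beside these genes. Of all genes 11.5% were called in controls, 1.14% in knockouts and 14.7% averaged. The marker lists are short, so that 1 call in a list of 5 is already 20%. Of 7 B-cell markers 5 fell in controls and 5 in knockouts (71.4% each). Of 8 natural killer markers 3 fell in controls (37.5%) and 0 were called in knockouts. Of 5 tissue macrophage markers 3 rose in controls (60%) and 0 were called in knockouts. Averaged over genotypes, 1 of 6 neutrophil markers rose and 3 fell (66.7% called), and 1 of 8 endothelial markers rose and 3 fell (50%). Falls were called for 2 of 5 nonclassical monocyte and 2 of 5 heart atrium markers (40% each). They were also called for 2 of 7 T-cell (28.6%), 1 of 4 classical monocyte (25%) and 1 of 5 lung epithelial markers (20%). A rise was called for 1 of 4 alveolar macrophage markers (25%). Of 5 markers of plasmacytoid dendritic cells, a main source of type I interferon, 1 fell in the average, and array means ran from 4.52 to 4.82. Of 10 nuclear noncoding RNAs 5 fell in controls (50%) and 0 were called in knockouts. The part of these changes in the values of Igtp and Irf9 was not tested beyond the covariate fits given here.

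The second question was whether endothelial loss of Nfat5 shifted the genes. By limma, 0 of 33 were called in normoxia, in hypoxia or averaged over both. Among all genes 0.00405% (1 gene) were called in normoxia and 0% in hypoxia and in the average (0%). At an unadjusted p under 0.05 there were 2 of 33 in normoxia, 4 in hypoxia and 3 averaged, against 7.26%, 5.10% and 4.26% of all genes. The groups did not overlap for 3 of 33 genes in normoxia (9.09%, against 11.7% of all genes) and for 7 of 33 in hypoxia (21.2%, against 9.74%). Of those 7, Cmpk2, Isg15, Mx1 and Usp18 were higher in knockouts and Apol9a, Ifit3 and Oasl1 lower. Median differences were 0.02, 0.11 and 0.07 against 0.00 over all genes in each. The 95% interval lay within 2-fold for 31 of 33 genes in normoxia, 31 in hypoxia and 33 averaged.

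Apol9a, an apolipoprotein L gene, had the lowest unadjusted p of the 33 for genotype in hypoxia and in the average. It read 5.74, 5.83 and 5.95 in normoxic controls and 5.60, 5.47 and 5.43 in normoxic knockouts. In hypoxia the controls read 6.21, 6.08 and 6.05 and the knockouts 5.32, 5.90 and 5.41. The knockouts were lower without overlap in both oxygen states, though knockout hypoxia 3 stood near the controls. The difference was -0.34 ± 0.13 in normoxia (adjusted p = 0.65), -0.57 ± 0.13 in hypoxia (adjusted p = 0.95) and -0.46 ± 0.09 averaged (adjusted p = 0.75, exact permutation p = 0.005). It was not called in any of the settings tried. Its close copy Apol9b differed by 0.15 ± 0.25 averaged, and probes may not separate the copies. Its promoter stretch is shown with those of Isg15 and Ifit1, 2 classical genes of the group that were not called, to set its matches beside theirs. They lie at chr15:77411081-77411190 (minus strand), chr4:156200819-156200928 (minus strand) and chr19:34640779-34640888 (plus strand).
Apol9a: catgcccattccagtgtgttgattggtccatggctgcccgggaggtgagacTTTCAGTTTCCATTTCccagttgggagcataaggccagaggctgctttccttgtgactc
Isg15: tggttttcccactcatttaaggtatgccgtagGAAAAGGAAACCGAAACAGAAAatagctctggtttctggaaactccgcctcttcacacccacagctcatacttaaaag
Ifit1: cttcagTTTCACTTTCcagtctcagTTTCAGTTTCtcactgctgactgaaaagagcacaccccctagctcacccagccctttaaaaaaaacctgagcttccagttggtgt
Capitals mark ISRE cores, of which Apol9a and Ifit1 hold 2 each and Isg15 holds 3 that overlap.

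Ifi27l2a, of the IFI27 family of small membrane proteins, had the largest genotype difference in normoxia. It read 5.52, 4.26 and 5.23 in normoxic controls and 6.19, 6.42 and 5.61 in normoxic knockouts. The groups did not overlap, and control normoxia 2 was the lowest of all 12 arrays. The difference was 1.07 ± 0.34 (adjusted p = 0.61). In hypoxia the controls read 6.33, 5.42 and 5.56 and the knockouts 5.14, 5.80 and 5.74, which overlap. The 2 arrays with high Ucp1, knockout normoxia 2 and control hypoxia 1, had its 2 highest values, and the part of that tissue was not tested.

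In hypoxia, Oasl1, which restrains Irf7 translation, read 4.40, 4.56 and 4.13 in controls and 4.12, 3.93 and 4.00 in knockouts, a difference of -0.35 ± 0.11. Isg15 read 3.33, 3.36 and 3.37 in hypoxic controls and 3.71, 3.64 and 3.46 in hypoxic knockouts, a difference of 0.25 ± 0.09. Both pairs of groups are separate. Ifit3 read 5.06, 5.21 and 4.98 in hypoxic knockouts, below all 3 hypoxic controls, and differed by -0.39. In normoxic knockouts it read 5.27, 5.17 and 4.90, within the range of the normoxic controls. Usp18 read 7.40, 7.74 and 7.46 in hypoxic controls and 7.95, 7.90 and 7.81 in hypoxic knockouts, and differed by 0.35. In normoxia its groups overlapped, with 7.96, 7.02 and 7.42 in controls and 8.05, 7.12 and 7.65 in knockouts. Oasl1 in normoxia read 4.14, 4.23 and 4.25 in controls and 4.25, 4.06 and 4.09 in knockouts, which overlap. The adjusted p was 0.95 for each of these 4, and both Isg15 and Oasl1 lay below the table's median level.

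The last question was whether the response to hypoxia differed by genotype. By limma 0 of 33 genes were called for this interaction and 1 had an unadjusted p under 0.05, against 0.00405% and 8.25% of all genes. That gene was Ifi27l2a, at -1.28 ± 0.48 (adjusted p = 0.57). The next largest were Iigp1 at 0.78 ± 0.47 (adjusted p = 0.68) and Herc6 at 0.61 ± 0.38 (adjusted p = 0.70). The 95% interval lay within 2-fold for 27 of 33 genes. Calls present in controls and missing in knockouts are therefore not shown to differ.

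Upstream of these genes, 17 of 21 listed interferon genes were measured, with array means of only 3.69 to 3.90. Ifnl3, a type III interferon, read 3.96, 4.36 and 4.28 in normoxic controls and 5.22, 4.96 and 5.14 in hypoxic ones. It rose by 0.91 ± 0.17 (adjusted p = 0.0088) in controls and by 0.57 averaged (adjusted p = 0.0093), and the other 16 did not pass in either. This 1 gene is 5.88% of the 17, below the 11.5% of all genes called in controls and 14.7% averaged. In knockouts the difference of Ifnl3 was 0.23 (adjusted p = 0.65) and the groups overlapped. With the nuclear RNA covariate neither call held (adjusted p = 0.75 and 0.64). Its level was near the table's median throughout. Of 17 receptor and signalling genes, 1 rose in controls (Socs1, a feedback inhibitor of the kinases, by 0.46, adjusted p = 0.042) and 1 fell (Jak1, a kinase of every interferon receptor, by 0.32, adjusted p = 0.03). The 2 calls are 11.8% of the list, against 11.5% of all genes. They were lost in 13 of 20 settings for Socs1, which differed by -0.03 in knockouts, and in 10 of 21 for Jak1. Averaged, Jak1 fell by 0.24 and Jak2, a kinase of the interferon gamma receptor, by 0.45 (adjusted p = 0.031). The averaged call was lost in 2 of 20 settings for Jak1 and in 9 of 20 for Jak2. These 2 averaged calls are 11.8% of the list, against 14.7% of all genes.

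Of 15 genes of nucleic acid sensing outside the 33, none rose and 2 fell in controls, and 2 rose and 2 fell in the average. These are 13.3% and 26.7% of the list, against 11.5% and 14.7% of all genes. In the average Sting1, the adaptor for cytosolic DNA, rose by 0.47 (adjusted p = 0.0084), and Myd88, the adaptor of most Toll-like receptors, by 0.43 (adjusted p = 0.039). Myd88 differed by 0.04 in controls and 0.82 in knockouts (adjusted p = 0.051). Samhd1, which degrades nucleotides, fell by 0.28 and Tbk1, the kinase that activates IRF3, by 0.26. The averaged calls of Myd88 and Tbk1 were each lost in 11 of 20 settings, and that of Tbk1 in controls in 14 of 21. Those of Sting1 and Samhd1 were lost with the nuclear RNA covariate, and that of Samhd1 also without knockout normoxia 2. In controls the call of Samhd1 was lost in 6 of 21 settings.

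Of 58 further interferon-stimulated genes, 4 rose and 8 fell in controls, 1 rose and 2 fell in knockouts, and 5 rose and 10 fell in the average. These are 20.7%, 5.17% and 25.9% of the list, each above the share of all genes (11.5%, 1.14% and 14.7%). Whether this list differs from the 33 was not tested. Gbp9, a guanylate-binding protein, read 8.75, 8.69 and 8.48 in normoxic controls and 7.76, 7.64 and 7.79 in hypoxic ones. It fell by 0.91 in controls (adjusted p = 0.0011), by 0.69 in knockouts (adjusted p = 0.0072) and by 0.80 in the average (adjusted p = 9.9e-05). Epsti1 fell by 1.17 and Sp100, of nuclear bodies, by 0.50 in controls, while Lgals9, a lectin, rose by 0.38, a call lost in 12 of 21 settings. With the nuclear RNA covariate the calls of Gbp9, Epsti1 and Sp100 in controls were lost, while the averaged call of Gbp9 held in all 20 settings. The larger list thus held calls in both directions, as the 33 held differences in both. In the genotype comparisons and the interaction, limma called 0 genes of these 4 lists. At an unadjusted p under 0.05, the 58 further genes gave 5 for genotype in normoxia, 1 in hypoxia, 1 averaged and 1 for the interaction. The 3 lists upstream gave 0 to 2 genes each in every one of these comparisons. Of all genes, 7.26% had such a p for genotype in normoxia, 5.10% in hypoxia, 4.26% averaged and 8.25% for the interaction. Counts this small cannot be read closely against those shares.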

How the data were processed

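Expression was measured on Affymetrix arrays from biotin-labelled cRNA of Ringer-perfused lung, 12 arrays in 4 groups of 3. The authors deposited log2 values, 1 per probe set and array, made with RMA per the submitters' processing notes. The labels state neither its version nor a filter. All 25428 probe sets read 2.41 to 13.7, and the sorted arrays were identical (largest difference 0), so a change in total RNA cannot be seen. The number of arrays limits the precision. Within a group, arrays correlated at 0.989 to 0.994.

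A single symbol was paired with 24705 probe sets, none with 723 and several with 0. Where a symbol had 2, the one with the higher mean was kept, leaving 24704 genes. The fit was limma's (version 3.58.1, under R 4.3.3) with 4 group means (8 residual degrees of freedom, prior 3.61), with 7 contrasts and two-sided tests. Adjusted p-values run over all genes. The method was tested on simulated data with changes added in hypoxic controls. Of 100 genes changed by 0.5 in log2 it called 34, and of 100 changed by 1 it called 79. It also called 7 unchanged genes. Most changes of 0.5 were thus missed, though the simulation changed fewer genes than were called in that comparison of the data. Exact permutation p-values permute arrays within a genotype or oxygen state.

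The members and lists were chosen with earlier results of these data known. Values per array are given, in the groups compared, for called members and for the 4 with the largest differences in each contrast, along with a few others that did not overlap. From each other list up to 4 genes with the smallest adjusted p were eligible. Gm12250 and Apol9b were chosen after values were seen. Replicate numbers were not used to pair the arrays in the main fit, since the labels do not say what they mark. Alternatives were an intensity trend, the contrast's own arrays only, a replicate block, a filter at a mean of 5, array weights, Y-linked and nuclear RNA covariates, averaged probe sets, and leaving out arrays.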

Additional observations from a re-analysis of the deposited data

How the results depend on the processing

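The number of genes called with hypoxia in controls was 1. It became 2 with the arrays of the 2 groups only, 2 with the filter on low values, 2 with array weights, 3 with the replicate block and 0 with the nuclear RNA covariate. Leaving out 1 array gave 0 to 5, with 0 without control hypoxia 2, control hypoxia 4 or control normoxia 2, and 5 without control normoxia 4, Herc6 and Iigp1 among them. The number of interferon-stimulated genes called in the average, 2, became 4 with the replicate block and 0 with the nuclear RNA covariate. It was 1 without both arrays of high Ucp1 (an alternative chosen after seeing the data). It was 1 to 5 when 1 array was left out, with 5 again without control normoxia 4. Apart from the block, these averaged counts were not set against calls among all genes. In the other 5 comparisons the number of interferon-stimulated genes called was 0 in every setting. Same-numbered arrays had r from -0.248 to 0.277, with 4 of 15 pairs over 0.1. Arrays of different number had r from -0.321 to 0.341, with 13 of 39 pairs over 0.1. The labels do not say what a number marks, and with so few arrays these correlations cannot settle it. Whether the replicate block is a pairing is thus not known, and it absorbs the only array numbered 3. Under the nuclear RNA covariate the sign turned for Iigp1 in controls (0.0583), in the average (0.10) and for genotype in normoxia (0.14), and for Herc6 in controls (0.23), in the average (0.14), for genotype in normoxia (0.20) and in the interaction (-0.18). It also turned for Ifna4 in controls (0.53) and in the average (0.26), Jak2 (0.11), Sting1 (-0.0152) and Gm12250 (-0.0407) in controls, and Nfat5 in the interaction (-0.12). Iigp1 for genotype in normoxia ran from -0.691 to 0.0238 when 1 array was left out, with the sign turned without control normoxia 2. Nfat5 for genotype in hypoxia ran from -0.216 to 0.00846, and was 0.00195 without knockout hypoxia 2, 0.00846 without control hypoxia 1 and 0.00846 without both arrays of high Ucp1. The cause was not tested. That covariate moves with hypoxia, so both effects cannot be told apart in its fit. With 3 arrays a group and no detection calls, small changes of the low genes Isg15, Mx1, Mx2, Oas1a, Oas3 and Oasl1 could not be judged.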
